A study of Mus musculus with 7 samples.

Results

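Proliferating cells copy their DNA in S phase and divide it in mitosis, and each step has its own set of transcribed genes. The genes described here are 52 such genes, 25 that serve DNA replication (S) and 27 that serve chromosome segregation and division (G2/M), out of 34932 genes with summed values. They were taken by name from a fixed list, and the role of each placed it in a phase. Expression was measured by bulk RNA-seq in 7 libraries of mouse bone marrow cells labelled LT-HSC, long-term haematopoietic stem cells, from mice on a 129S1 and C57Bl/6 background. The 4 libraries labelled KO came from full B4galt1 knockout mice (B4-/-), which lack an enzyme that adds galactose to glycans, and the 3 labelled WT from mice of the same background without that change. The labels give no treatment for either group and no ages, and they do not say whether cells of several mice were pooled. The cells had been gated as lineage-negative, Sca-1+, cKit+, CD150+ and CD48-.

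As background, most haematopoietic stem cells in the adult marrow rest outside the cell cycle, while the progenitors they give rise to divide often. Cells entering the cycle first switch on E2F target genes, whose products load and fire replication origins and supply nucleotides. Later the complex of B-Myb and FoxM1 switches on the genes of mitosis, whose products condense chromosomes, attach them to the spindle and divide the cell. In resting cells the DREAM complex holds both sets down, in part through a promoter element called the cell cycle genes homology region (CHR).

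The libraries held 23508985 to 34941390 estimated reads, the most in replicate 4 labelled KO. B4galt1 itself did not separate the groups, at 14.6 to 19.3 CPM (read counts scaled to library size) in those labelled KO and 11.3 to 24.4 CPM in WT (edgeR adjusted p = 0.758), so each direction below rests on the labels. The counts cover the whole gene and cannot show a deletion of part of it. Replicate 4 labelled KO and WT replicate 3 lacked Y-linked expression, with 10.9 and 6.04 CPM over 4 Y-linked genes against 256 CPM or more in the other 5. All 14 fixed LT-HSC markers were expressed, and Slamf1, which encodes CD150, was at 67.8 to 128 CPM. Over all 14695 genes tested, 88 rose with the label KO and 244 fell, so that 26.5% of the calls were rises, and with an offset for transcript length the split was 215 to 251, or 46.1% higher.

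All 52 genes were expressed in these sorted cells and all passed the filter on low counts. On the deposited TPM scale, which accounts for transcript length, Pcna led the list at a mean of 319 TPM over the 7 libraries. It encodes the sliding clamp that holds DNA polymerase on its template. Tyms, which makes thymidylate, followed at 314 TPM, although 70.3% to 77% of its reads lay on non-coding transcripts, and Birc5, the survivin subunit of the chromosomal passenger complex, led the G2/M genes at 278 TPM. At the other end lay Foxm1 at 3.66 TPM, Ccne1, which encodes cyclin E1, at 7.71 TPM, and Mcm10 at 9.77 TPM. The proliferation marker Mki67, with its long transcript, stood at rank 40 of 52 with 18.9 TPM. The regulators E2f1 (10.0 TPM), E2f8 (12.2 TPM) and Cdc6 (13.3 TPM) also stood low, at ranks 49, 47 and 46.

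Between the groups, 2 of the 52 genes rose in the libraries labelled KO and none fell (edgeR, adjusted p below 0.05). Both are kinetochore genes of mitosis, Cenpe and Cenpf. Across all genes tested 0.599% rose and 1.66% fell, or 2.26% in either direction. DESeq2 and limma voom each called the same 2 genes, with a background of 2.27% higher and 3.39% lower for DESeq2 and 1.83% and 2.99% for limma voom. No S gene passed in either direction with edgeR, DESeq2 or limma voom, and at an unadjusted p below 0.05 the edgeR counts were 2 of 25 S genes and 7 of 27 G2/M genes higher and 0 lower, where 7.42% of all genes were higher and 7.21% lower. In bulk samples, fewer cells of a type and less RNA per cell cannot be told apart.

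The log2 fold changes leaned upward without most of them passing. Of the S genes 18 lay above 0 and 7 below, with a median of 0.32, and of the G2/M genes 19 lay above and 8 below, with a median of 0.26. Over all genes tested the median was 0.03, with 52.7% above 0. The values ran from -0.28 (Gins2) to 0.70 (Cdc45) among S genes and from -0.20 (Birc5) to 1.02 (Cenpe) among G2/M genes. In 8 of the 52 genes every library labelled KO lay above every WT library, 2 of them S genes and 6 G2/M genes, and in none did they all lie below. Of all genes tested, 8.23% showed the first pattern and 7.47% the second, so that 15.7% had groups apart. The S median depended most on 1 library and was 0.10 without replicate 4 labelled KO, when 18 S genes still lay above 0. The G2/M median was 0.15 without that library and 0.043 without WT replicate 2. WT replicate 2 also had the highest mitochondrial share of reads, 4.76% against 2.53% to 3.56% in the others, and the fewest genes with reads (17659). The part of library quality in these values was not tested.

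**Figure D1:**
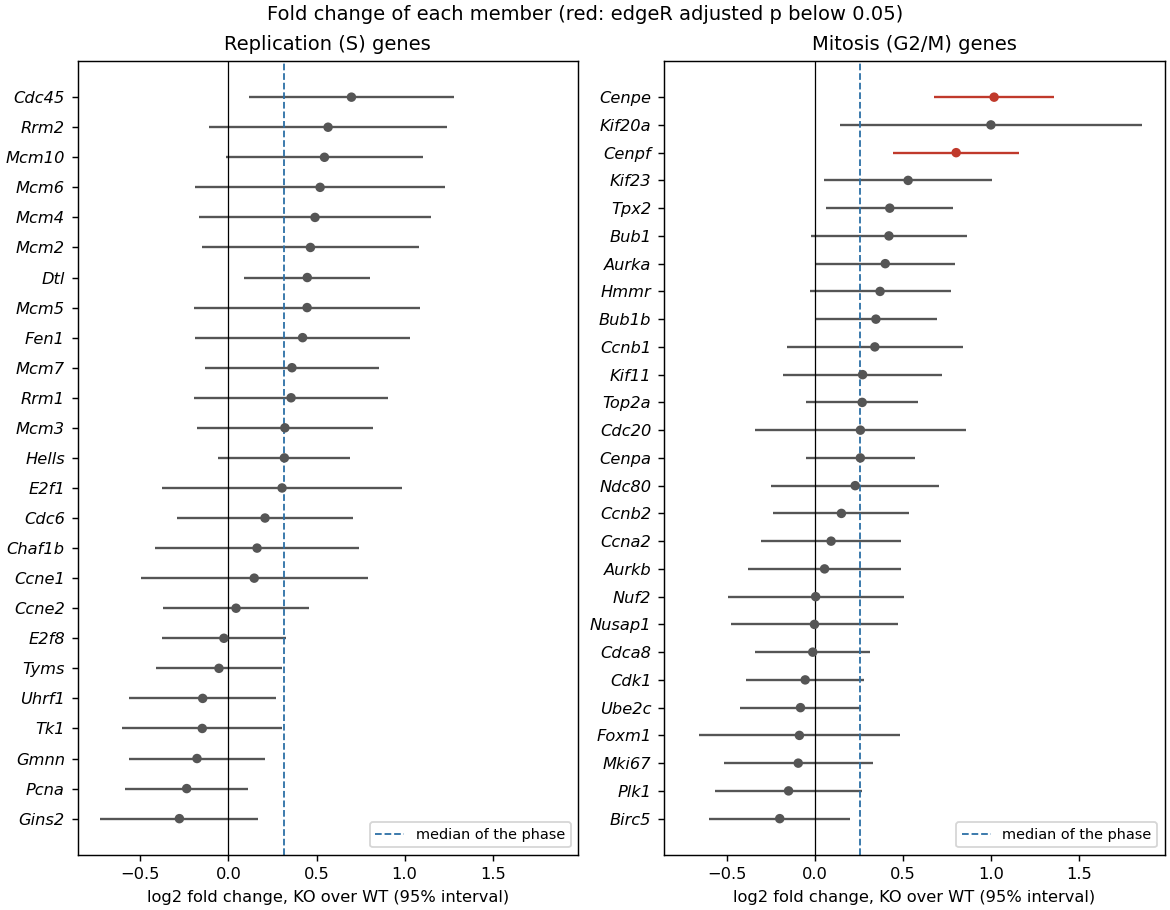
Log2 fold change of each gene between the 4 libraries labelled KO and the 3 labelled WT (x axis, points, with 95% intervals as lines), sorted by size and split into S genes (left) and G2/M genes (right). Cenpe and Cenpf, in red, passed the edgeR test; the dashed lines mark the medians of 0.32 (S) and 0.26 (G2/M).

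The phases were also followed library by library, as the mean over genes of the log2 CPM less the gene's mean over the 7 libraries. For the S genes this deviation was -0.04, 0.20, -0.18 and 0.37 in replicates 1 to 4 labelled KO and -0.09, -0.26 and 0.00 in WT replicates 1 to 3. The group means were 0.09 ± 0.25 (SD, n = 4) and -0.12 ± 0.13 (SD, n = 3), so the gap of 0.21 was smaller than the spread within the group labelled KO. Replicate 3 labelled KO lay below WT replicates 1 and 3, and replicate 1 lay between them. For the G2/M genes the deviation was -0.01, 0.16, 0.00 and 0.26 in replicates 1 to 4 labelled KO and -0.14, -0.30 and 0.02 in WT replicates 1 to 3. Here the means were 0.10 ± 0.13 and -0.14 ± 0.16, and WT replicate 3 lay above replicates 1 and 3 labelled KO, so the groups overlapped in both phases.

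The phases followed each other across libraries, with replicate 4 labelled KO highest and WT replicate 2 lowest in both. Replicate 4 labelled KO had the highest value of all 7 libraries for 15 of 25 S genes and 13 of 27 G2/M genes, and WT replicate 2 the lowest for 10 and 16. Of all genes tested, 26.8% were highest in the former and 25.2% lowest in the latter. The S deviation exceeded the G2/M deviation by 0.11 in replicate 4 labelled KO and fell short of it in replicate 3 (-0.18), the extremes of the 7 libraries. In replicate 4 labelled KO, 9 of 25 S genes (36%) and 4 of 27 G2/M genes (14.8%) were over 1.5 times the mean of the other 3 libraries of its group, against 16.7% of all genes tested.

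**Figure D2:**
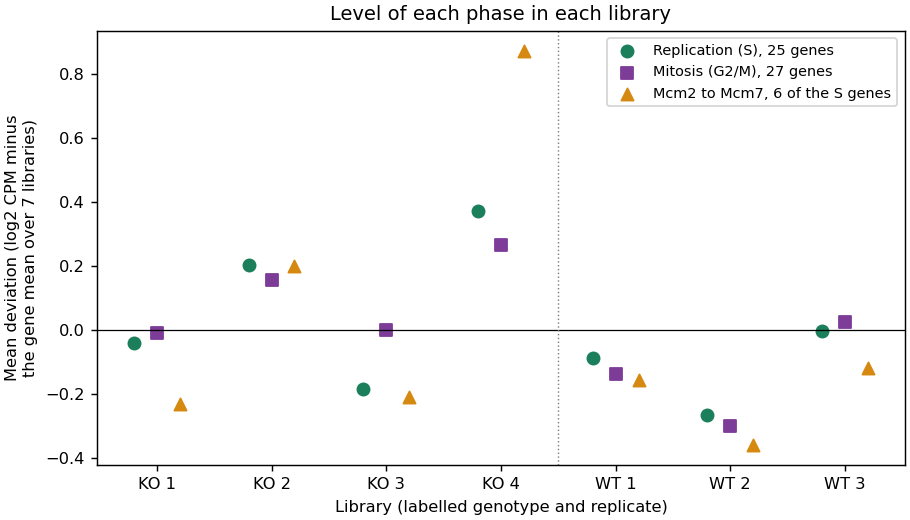
Mean deviation of each phase in each library (y axis, log2 CPM less each gene's mean over 7 libraries) for the 25 S genes (circles), the 27 G2/M genes (squares) and the 6 genes Mcm2 to Mcm7 (triangles), with libraries labelled KO left of the dotted line and WT right of it. Circles and squares of the groups overlap, and the Mcm2 to Mcm7 value of replicate 4 labelled KO, at 0.87, stands above all others.

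**Figure D3:**
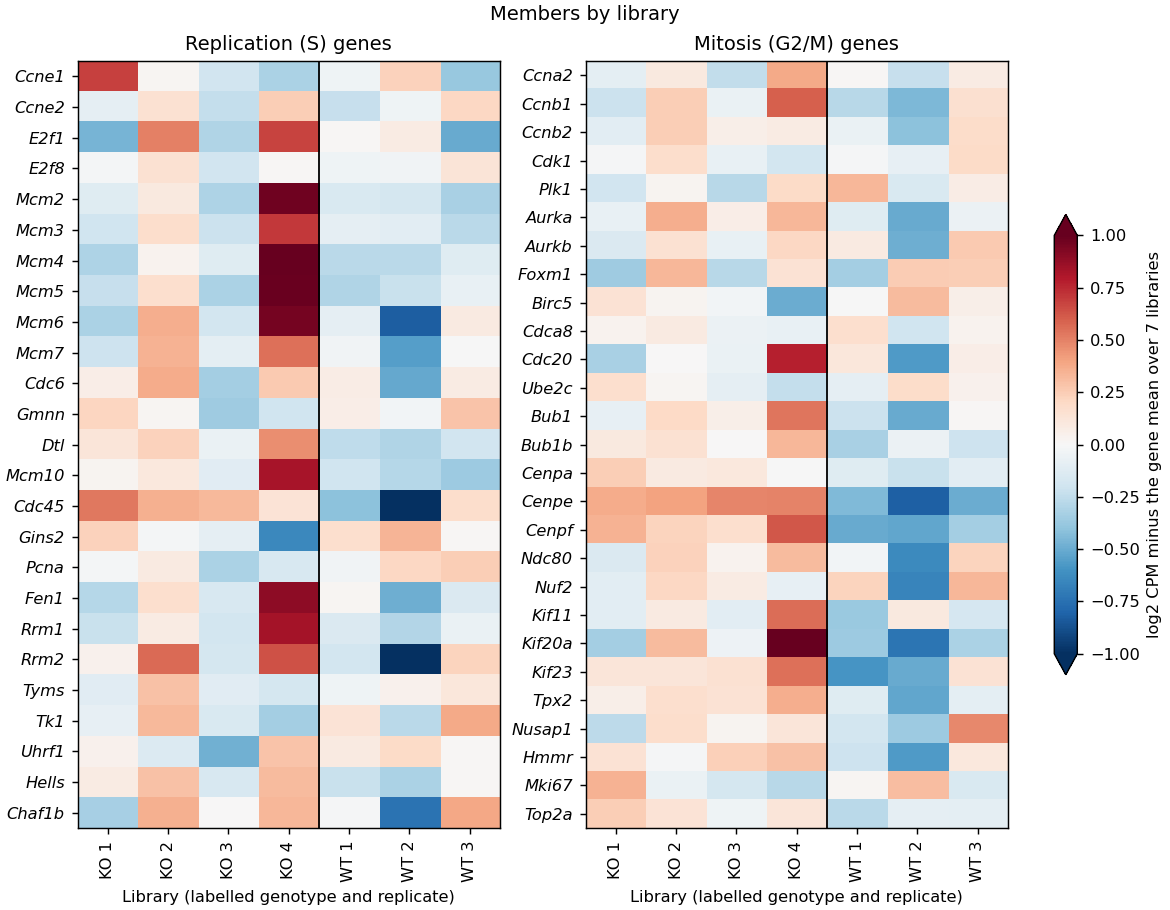
Deviation of each gene in each library (colour, log2 CPM less the gene's mean over 7 libraries, cut at 1 and -1), with S genes on the left, G2/M genes on the right and a black line between the groups. The darkest red cells of the S genes sit in replicate 4 labelled KO, mostly in the Mcm genes, while Cenpe and Cenpf are red in all 4 libraries labelled KO and blue in all 3 WT libraries.

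Kinetochore and checkpoint genes held both calls. Kinetochores join chromosomes to spindle microtubules, and the 7 genes of this group had log2 fold changes from 0.00 to 1.02, with a median of 0.35. The sign of Nuf2 changed with other scalings and that of Ndc80 without WT replicate 2. Cenpe encodes the kinesin motor CENP-E, which carries chromosomes to the spindle equator. Cenpe was at 101, 103, 109.6 and 110.1 CPM in replicates 1 to 4 labelled KO and at 57.5, 44.2 and 55.2 CPM in WT replicates 1 to 3. Every library labelled KO was near the others of its group and above every WT library. The means were 106 ± 4.65 against 52.3 ± 7.11 CPM (SD, n = 4 and 3), a 2.02-fold difference with a log2 fold change of 1.02 (SE 0.154, adjusted p = 0.00559 by edgeR) and a 95% interval from 0.68 to 1.36. The call held in all 19 alternative analyses, with an adjusted p of at most 0.0339.

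Cenpf encodes CENP-F, a large protein of the outer kinetochore. Cenpf was at 126, 116, 112 and 153 CPM in replicates 1 to 4 labelled KO and at 70.2, 69.5 and 78.6 CPM in WT replicates 1 to 3. The groups did not overlap, and replicate 4 labelled KO was the highest. The log2 fold change was 0.80 (SE 0.161, adjusted p = 0.0288 by edgeR), a 1.74-fold difference between 127 ± 18.3 against 72.8 ± 5.08 CPM (SD, n = 4 and 3). This call was lost when any library other than replicate 4 labelled KO was left out (edgeR adjusted p from 0.0613 to 0.139), and it held without that library (0.71, edgeR adjusted p = 0.0277).

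Their promoters are shown because these genes carry the difference, beside those of Top2a and Mcm6 as examples of a G2/M and an S gene that did not pass. The RefSeq sequences (GRCm38.p6) give the 150 bases before each gene's RefSeq start, read 5′ to 3′ on the gene's strand. Capitals mark CCAAT boxes, bound by NF-Y, the CHR letters TTTGAA, and E2F core letters (TTCCCGC or TTGGCGC or TTCGCGC or TTGCCGC), each on either strand. The windows are chr3:135212413-135212562 on the plus strand for Cenpe and chr1:189688087-189688236, chr11:99024190-99024339 and chr1:128359706-128359855 on the minus strand for Cenpf, Top2a and Mcm6.
Cenpe: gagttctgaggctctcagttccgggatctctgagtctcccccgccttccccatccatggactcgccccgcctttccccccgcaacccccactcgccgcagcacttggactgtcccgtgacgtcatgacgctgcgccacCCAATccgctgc
Cenpf: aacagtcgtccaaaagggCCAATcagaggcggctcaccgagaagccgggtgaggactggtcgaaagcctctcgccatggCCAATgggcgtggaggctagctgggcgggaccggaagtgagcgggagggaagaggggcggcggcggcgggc
Top2a: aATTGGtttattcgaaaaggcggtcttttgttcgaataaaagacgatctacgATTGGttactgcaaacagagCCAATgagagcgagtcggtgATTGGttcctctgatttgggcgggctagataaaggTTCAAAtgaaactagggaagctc
Mcm6: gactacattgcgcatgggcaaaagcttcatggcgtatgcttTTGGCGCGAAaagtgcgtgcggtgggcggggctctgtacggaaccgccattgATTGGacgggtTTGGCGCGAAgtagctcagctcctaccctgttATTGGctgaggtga
The RefSeq and GENCODE starts are the same for Cenpf and Top2a. For Cenpe the RefSeq start lies 26 bases inside the GENCODE gene, which takes in its CCAAT box, and for Mcm6 it lies 41 bases before that gene's start. In these windows Cenpe held 1 CCAAT box and Cenpf 2, with no CHR or E2F letters. Top2a held 4 CCAAT boxes and 1 CHR match, and Mcm6 held 2 CCAAT boxes and 4 E2F matches, which overlap in pairs on opposite strands.

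Promoter entries matched 43 of the 52 genes, the others being Ccne2, Mcm4, Gmnn, Gins2, Ccna2, Aurkb, Foxm1, Kif20a and Tpx2. The RefSeq start was within 50 bases of the GENCODE start for 32 of the 43. Within 250 bases before the RefSeq start, the CHR letters were found in 7 of 22 G2/M genes (31.8%) and 4 of 21 S genes (19%), against 11.4% of the 10777 tested genes with an entry. CCAAT boxes were present in 18 G2/M genes (81.8%) and 13 S genes (61.9%), against 36.7%. The E2F letters were found in 11 S genes (52.4%) and 4 G2/M genes (18.2%), against 13.6%. A CCAAT box read on the opposite strand can overlap the E2F letters TTGGCGC. Of the matched genes, Mcm6 held the most E2F matches, and Top2a shared the highest counts of CCAAT boxes and CHR matches. Bub1, Bub1b, Cenpa, Aurka, Plk1, Cdca8 and Kif23, which did not pass, held CCAAT boxes without CHR or E2F letters, as Cenpe and Cenpf did. The median log2 fold change was 0.15 for G2/M genes with the CHR letters and 0.34 for the 15 without, and 0.36 for S genes with the E2F letters and 0.31 for the 10 without.

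The other kinetochore genes did not pass. Bub1b, which encodes the checkpoint protein BubR1, was at 54.8, 57, 51.4 and 64.2 CPM in the libraries labelled KO and 40.9, 49.1 and 44.2 CPM in WT, groups that did not overlap, with a log2 fold change of 0.35 (SE 0.156, adjusted p = 0.342 by edgeR). Cenpa, the histone H3 variant that marks centromeres, also had groups apart, at 208 to 247 against 179 to 194 CPM (0.26). Of its reads 56.3% to 59.8% lay on non-coding transcripts. Its coding transcripts alone were at 83.7 to 108 against 73.2 to 79.8 CPM (0.33, edgeR adjusted p = 0.394). Bub1, the checkpoint kinase, was at 0.42. The microtubule-binding NDC80 complex subunits Ndc80 (0.23) and Nuf2 (0.00) overlapped between the groups.

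**Figure D4:**
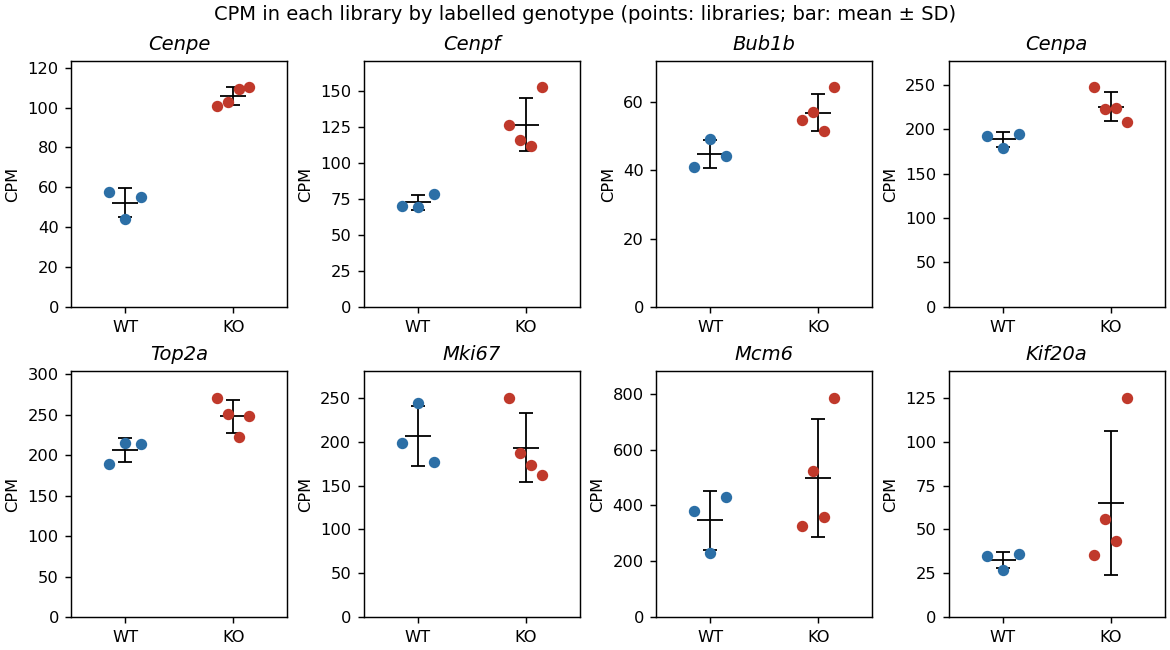
CPM of 8 genes in each library (points, red for labelled KO and blue for WT) with mean ± SD (black), on axes that start at 0. Cenpe, Cenpf, Bub1b, Cenpa and Top2a show groups that do not overlap, Mki67 and Mcm6 overlap, and Kif20a and Mcm6 each have 1 library labelled KO, replicate 4, far above the rest.

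Genes of the spindle and of cytokinesis leaned the same way, with a median of 0.40 over 6 genes and no call. Tpx2 encodes the factor that activates Aurora A on the spindle. Tpx2 was at 98.7, 106, 105 and 122 CPM in replicates 1 to 4 labelled KO and at 86.9, 65.8 and 88.4 CPM in WT replicates 1 to 3. The groups did not overlap, with a log2 fold change of 0.42 (SE 0.163, adjusted p = 0.261 by edgeR) that passed with the length offset (0.87, edgeR adjusted p = 0.0359). Kif20a encodes the kinesin MKLP2, which acts in cytokinesis. Kif20a was at 35.4, 55.7, 43.2 and 125 CPM in replicates 1 to 4 labelled KO and at 34.7, 27 and 35.8 CPM in WT replicates 1 to 3. Replicate 4 labelled KO was 2.80 times the mean of the other 3, and the lowest library labelled KO lay within the WT range. Its log2 fold change was 1.00 (SE 0.387, adjusted p = 0.269 by edgeR), and 0.47 without that library. Kif23, the partner kinesin MKLP1, was at 0.53, Hmmr at 0.37, Kif11, the kinesin Eg5 that separates spindle poles, at 0.27, and Nusap1 at 0.00.

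The kinases and cyclins that drive mitosis had log2 fold changes around 0, with a median of 0.07 over 8 genes. Aurka, which encodes the Aurora A kinase, was at 62.3, 84.2, 68.8 and 82.5 CPM in replicates 1 to 4 labelled KO and 60.3, 46.1 and 62.9 CPM in WT. Its lowest value labelled KO lay below the highest in WT, and the log2 fold change was 0.40 (SE 0.179, adjusted p = 0.336 by edgeR). Ccnb1, which encodes cyclin B1, was at 178, 245, 198 and 313 CPM and 170.2, 152 and 232 CPM in the same order. WT replicate 3 lay within the range of the libraries labelled KO, and the log2 fold change was 0.34 (SE 0.226, adjusted p = 0.521 by edgeR). Cdk1, the kinase that cyclins A and B activate, was at -0.05, with a 95% interval from -0.39 to 0.28, Ccnb2 at 0.15 and Ccna2 at 0.09. Plk1 (-0.15), Aurkb (0.05) and the transcription factor Foxm1 (-0.09) also overlapped between the groups. Over the alternatives, the sign of Cdk1, Ccna2, Ccnb2, Aurkb and Foxm1 changed in at least 1.

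Among the chromosomal passenger and anaphase genes the median was -0.05 over 4 genes. Birc5 was at 231, 222 and 160.4 CPM in replicates 2 to 4 labelled KO, higher in replicate 1 but below WT replicate 2, and at 226, 282 and 236 CPM in WT, with replicate 4 labelled KO the lowest of all 7, and its log2 fold change of -0.20 (SE 0.181, adjusted p = 0.637 by edgeR) did not pass. Cdc20, the activator of the anaphase-promoting complex, ran the other way in that library, at 97.5, 123, 117 and 209 CPM against 132, 82.4 and 128 CPM, with a log2 fold change of 0.26 (SE 0.270, adjusted p = 0.689 by edgeR) that was -0.02 without it. Ube2c, the ubiquitin-conjugating enzyme of that complex, was at -0.08 and Cdca8, borealin, at -0.01.

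The chromosome proteins Top2a and Mki67, which are both common markers of dividing cells, had log2 fold changes of opposite sign, except without WT replicate 2, when Mki67 turned positive. Top2a encodes the topoisomerase that untangles sister chromatids. Top2a was at 271, 251, 222 and 248 CPM in replicates 1 to 4 labelled KO and at 189, 215 and 214 CPM in WT replicates 1 to 3. Its groups did not overlap, but the difference of 248 ± 20.2 against 206 ± 14.5 CPM (SD, n = 4 and 3) did not pass, at 0.27 (SE 0.144, adjusted p = 0.431 by edgeR). Mki67 encodes Ki-67, which coats mitotic chromosomes. Mki67 was at 250.5, 187, 174 and 162 CPM in replicates 1 to 4 labelled KO and at 199, 244 and 177 CPM in WT replicates 1 to 3. The highest and the lowest value both came from libraries labelled KO, and the log2 fold change of -0.09 (SE 0.191, adjusted p = 0.844 by edgeR) had a 95% interval from -0.52 to 0.33.

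On the S side, the regulators of the G1 to S step overlapped between the groups. E2f1, the transcription factor that starts the S programme, was at 15.3, 29.9, 17.1 and 33.8 CPM in replicates 1 to 4 labelled KO and 21.2, 22.3 and 14.8 CPM in WT replicates 1 to 3, high in replicates 2 and 4 and low in 1 and 3. The log2 fold change of 0.30 (SE 0.307, adjusted p = 0.677 by edgeR) was -0.06 among the 5 libraries with Y-linked expression. Ccne1 was at 21, 13.2, 11.4 and 10.5 CPM and 12.6, 15.3 and 10.0 CPM, with replicate 1 labelled KO the highest and the others within or near the WT range (0.15). Ccne2 was at 0.04 and E2f8, a repressor of E2F targets, at -0.03.

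Origin licensing genes were led by the 6 subunits of the MCM helicase, which is loaded on DNA before replication and unwinds it. All 6 had positive log2 fold changes between 0.32 and 0.52, none passed, and with the length offset Mcm3 turned to -0.39. Their summed level was 1014, 1432, 1053 and 2198 CPM in replicates 1 to 4 labelled KO and 1103, 885 and 1152 CPM in WT replicates 1 to 3. Replicate 4 labelled KO was the highest library for each of the 6, at 1.43 (Mcm7) to 2.27 (Mcm4) times the mean of the other 3 of its group, and those 3 overlapped with WT. Without that library the median over the 6 genes was 0.11 in place of 0.46. It is also the library labelled KO without Y-linked expression, while WT replicate 3, which lacks it too, had the highest sum of the WT libraries. The part of sex and of read depth in this value was not tested.

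Mcm6 had the highest CPM of the helicase genes. Mcm6 was at 325, 522, 357 and 787 CPM in replicates 1 to 4 labelled KO and at 381, 228 and 432 CPM in WT replicates 1 to 3, and the log2 fold change was 0.52 (SE 0.320, adjusted p = 0.491 by edgeR). Mcm2 was at 132, 154, 116 and 282 CPM and 129, 127 and 115 CPM in the same order, with 3 of the 4 libraries labelled KO close to WT (log2 fold change 0.47, SE 0.279, adjusted p = 0.479 by edgeR). Dtl, which targets the licensing factor Cdt1 for destruction, was above WT in each library labelled KO. Dtl was at 104, 112, 90.9 and 132 CPM in replicates 1 to 4 labelled KO and at 79.9, 77.4 and 83.4 CPM in WT replicates 1 to 3. The groups did not overlap, with a log2 fold change of 0.45 (SE 0.162, adjusted p = 0.231 by edgeR). Reads on its non-coding transcripts made up 38.1% to 46.5% labelled KO and 21.3% to 33.1% in WT. With coding transcripts alone the value was 0.18 (edgeR adjusted p = 0.698), and the groups overlapped at 48.7 to 81 and 55.8 to 60.9 CPM. Cdc6, a loader of the helicase, was at 0.21, and geminin (Gmnn), the inhibitor of licensing, at -0.18.

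Of the replisome genes, Cdc45 and Mcm10 came closest to the threshold. Cdc45 is a subunit of the active helicase. Cdc45 was at 98, 86.7, 85 and 74.5 CPM in replicates 1 to 4 labelled KO and at 51, 31.4 and 76.7 CPM in WT replicates 1 to 3. WT replicate 3 overlapped with the libraries labelled KO, and the log2 fold change was 0.70 (SE 0.262, adjusted p = 0.250 by edgeR), passing among the 5 libraries with Y-linked expression (1.13, edgeR adjusted p = 0.0453). The reads assigned to its transcripts show where this lay. A retained-intron transcript, Cdc45-204, was at 39.3, 22.5, 22.4 and 1.20 CPM in replicates 1 to 4 labelled KO and 2.73, 3.49 and 0.716 CPM in WT, while the main coding transcript, Cdc45-201, was at 42.4, 51.9, 49 and 62.3 CPM and 35.6, 13.7 and 62.7 CPM. With coding transcripts alone the log2 fold change was 0.39 (edgeR adjusted p = 0.585). Reads shared by several transcripts of a gene are divided among them by estimation, so these are not direct counts.

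Mcm10, which helps to switch on the helicase, was at 20.4, 21.5, 18.5 and 35.6 CPM in the libraries labelled KO and 17.4, 16.4 and 15.6 CPM in WT. The groups did not overlap, replicate 4 was the highest, and the log2 fold change was 0.55 (SE 0.253, adjusted p = 0.357 by edgeR). Of its WT reads 50.1% to 73.7% lay on non-coding transcripts, and with coding transcripts alone the value was 1.48 (edgeR adjusted p = 0.163). Fen1, the flap endonuclease of lagging-strand synthesis, was at 0.42, and 0.11 without replicate 4 labelled KO. Pcna, the most abundant gene of the list, was at 405, 435, 329.5 and 366 CPM and 399, 472 and 486 CPM, with a log2 fold change of -0.24 (SE 0.157, adjusted p = 0.521 by edgeR), and Gins2, a subunit of the GINS complex, was at -0.28.

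**Figure D5:**
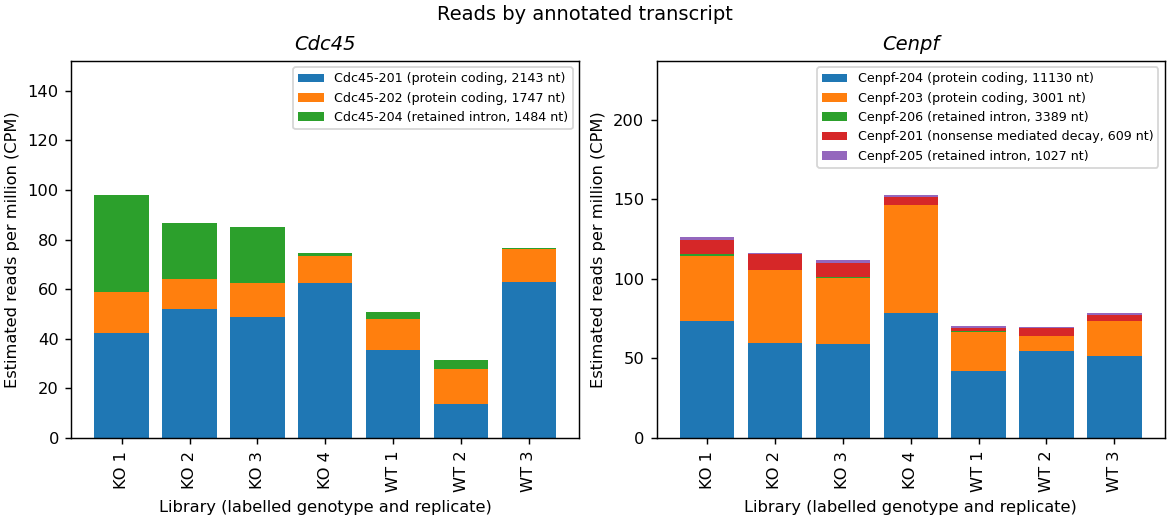
Estimated reads, in CPM, assigned to each annotated transcript of Cdc45 (left) and Cenpf (right) in each library, stacked, with transcripts that reach 1 CPM in any library. The green retained-intron part of Cdc45 is large in replicates 1 to 3 labelled KO and small in the other 4 libraries, while both coding transcripts of Cenpf are taller in the libraries labelled KO.

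The same reading of transcripts was made for the called genes. The reads of Cenpe lay almost wholly on the 7910 nt coding transcript, at 101, 103, 109 and 110.0 CPM labelled KO and 57.5, 43.1 and 55.2 CPM in WT. For Cenpf the full 11130 nt coding transcript was at 73.6, 59.5, 59.2 and 78.8 CPM and 42.4, 54.5 and 51.4 CPM, and the 3001 nt coding transcript at 41, 45.9, 41 and 67.3 CPM and 24, 9.53 and 21.9 CPM. Neither overlapped between the groups, so the difference was not limited to the shorter form. With coding transcripts alone both genes passed, Cenpe at 1.05 (edgeR adjusted p = 0.00591) and Cenpf at 0.81 (edgeR adjusted p = 0.0399). For Tpx2, a retained-intron transcript of 733 nt was at 3.75, 6.78, 6.66 and 7.92 CPM in the libraries labelled KO and had 0 estimated reads in every WT library. With coding transcripts alone Mcm3 was at 0.73, Gins2 at -0.56, Rrm1 at 0.54 and Top2a at 0.42, each farther from 0 than the whole gene, and none passed. Non-coding transcripts of Mcm3 held 1.33% of its reads in replicate 4 labelled KO, 14.4% to 26.6% in replicates 1 to 3 and 22.6% to 50.7% in WT. The transcripts named here were singled out after their values were seen.

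Of the nucleotide supply genes, 2 lay above 0 and 2 below, and Rrm2 alone kept its sign in every alternative. Rrm2, the small subunit of ribonucleotide reductase that is made in S phase, was at 86.1, 124, 74.3 and 130.4 CPM in the libraries labelled KO and 73.8, 38.7 and 97.7 CPM in WT. WT replicate 2 was low and WT replicate 3 within the range of the other group, and the log2 fold change was 0.57 (SE 0.305, adjusted p = 0.432 by edgeR). Rrm1, the large subunit, was at 149, 183, 152 and 308 CPM and 157, 142 and 166 CPM, with replicates 2 and 4 labelled KO above all of WT, a log2 fold change of 0.36 (SE 0.249, adjusted p = 0.542 by edgeR), and -0.19 with the length offset. Tyms was at -0.05 and thymidine kinase, Tk1, at -0.15.

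Genes that restore chromatin and DNA methylation behind the fork also overlapped between the groups. Hells, a chromatin remodeller, was at 102, 117, 86 and 119.8 CPM labelled KO and 82.1, 76.9 and 96.8 CPM in WT, with replicate 3 labelled KO inside the WT range (log2 fold change 0.32, SE 0.169, adjusted p = 0.427 by edgeR). Uhrf1, which guides the maintenance methyltransferase to new DNA, was at 68.8, 60.8, 47.8 and 81.3 CPM and 71, 76.1 and 67.5 CPM, the lowest value being that of replicate 3 labelled KO (log2 fold change -0.15, SE 0.189, adjusted p = 0.748 by edgeR). Chaf1b, a subunit of the histone chaperone CAF-1, was at 0.16.

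Transcript length moved with the sign of these values. Of the 6 genes whose mean effective transcript length was under 1000 nt, 5 lay below 0 (Gmnn, Tyms, Tk1, Birc5 and Ube2c) and 1, Cenpa, above. Of the 16 between 2000 and 3000 nt, 15 lay above 0. The same held in part for all genes tested, of which 35.4% were above 0 in the shorter class (median -0.14, 2723 genes) and 61.4% in the longer (median 0.11, 3367 genes). The length offset corrects for shifts of a gene's own transcript length between libraries. It does not correct for differences in length between genes, so it cannot test this trend. With it the medians were 0.21 for S and 0.14 for G2/M genes, and both calls held. Cenpe and Mki67, the 2 genes over 6000 nt, differed in sign, and the 584 tested genes of that length had a median of 0.00.

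Further genes of the same processes were counted in the same way. Of 54 further S genes, 1 rose and none fell, where 0.599% rose over all genes. With DESeq2 5 and with limma voom 4 were higher. Above 0 lay 42 (77.8%, against 52.7% of all genes), and the median was 0.18, or 0.13 without replicate 4 labelled KO. The gene that rose was Brca2, which acts in the repair of broken DNA. Brca2 was at 63.3, 67.6, 55.8 and 60.9 CPM in replicates 1 to 4 labelled KO and at 39, 33.7 and 40.6 CPM in WT replicates 1 to 3, and the log2 fold change was 0.71 (SE 0.156, adjusted p = 0.0427 by edgeR); with the length offset it was 0.40 and no longer passed (edgeR adjusted p = 0.299). Of 74 further G2/M genes, 1 rose and none fell, a share near that over all genes, and DESeq2 and limma voom each called 2 higher. Above 0 lay 57 (77%), and the median was 0.28. The gene that passed with edgeR was Kif20b, the kinesin MPP1, which acts late in cytokinesis. Kif20b was at 109.8, 147, 144 and 174 CPM in replicates 1 to 4 labelled KO and at 67.4, 66.3 and 85.6 CPM in WT replicates 1 to 3, and the groups did not overlap (log2 fold change 0.97, SE 0.189, adjusted p = 0.0242 by edgeR). The Brca2 call was lost without any 1 library other than replicate 4 labelled KO (edgeR adjusted p up to 0.156). The Kif20b call was lost without replicate 2 or 3 labelled KO or WT replicate 1 or 2 (edgeR adjusted p up to 0.130).

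The transcriptional regulators of both phases were tested as a list of 17 E2F, DREAM and B-Myb complex genes. None passed with edgeR, DESeq2 or limma voom (edgeR, unadjusted p below 0.05: 1 higher and 1 lower), and the median was 0.02. The smallest p-values belonged to Lin9, a DREAM core subunit, at 0.58 (SE 0.246, adjusted p = 0.315 by edgeR), and Rb1, the retinoblastoma protein, at -0.58 (SE 0.264, adjusted p = 0.340 by edgeR). Of 11 tested genes of G1 control, none rose and 2 fell, with 0.599% higher and 1.66% lower over all genes. DESeq2 called 1 higher and 3 lower, and limma voom 1 and 4. The gene higher by both was the CDK inhibitor Cdkn1a (p21), at 1.95 (SE 0.495, adjusted p = 0.0804 by edgeR) in the edgeR test, 1.93 with DESeq2 (adjusted p = 0.00181) and 1.72 with limma voom (adjusted p = 0.0350). Those that fell were the CDK inhibitor Cdkn1c (p57), at 8.5 ± 3.02 CPM labelled KO against 33.7 ± 5.47 CPM in WT (SD, n = 4 and 3, adjusted p = 0.00622 by edgeR), and cyclin D1 (Ccnd1), at -1.64 (SE 0.331, adjusted p = 0.0291 by edgeR). With the length offset Ccnd1 no longer passed, at -0.98 (adjusted p = 0.221 by edgeR), nor without replicate 2 or 3 labelled KO or WT replicate 1 or 2 (up to 0.108).

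Markers of other marrow cells moved between the same groups. For the calls in these and the remaining marker lists, 0.599% of all genes tested rose and 1.66% fell. Progenitors that the gate should leave out are marked by CD48, and its gene Cd48 was at 105, 126, 142 and 129.7 CPM in replicates 1 to 4 labelled KO and 25.2, 14 and 32.3 CPM in WT replicates 1 to 3 (edgeR adjusted p = 0.000804). The 12 fixed progenitor markers summed to 526 to 934 CPM labelled KO and 251 to 350.3 CPM in WT, 3 rose and none was at 0 throughout. The highest of these sums was in replicate 4 labelled KO and the lowest in WT replicate 2. These libraries were also highest and lowest in the mean deviation of both phases. In replicates 1 to 3 labelled KO, at 526, 741 and 792 CPM, the S deviations were -0.04, 0.20 and -0.18. Their G2/M deviations were -0.01, 0.16 and 0.00. WT replicates 1 and 3, at 350.3 and 329 CPM, had S deviations of -0.09 and -0.003 and G2/M deviations of -0.14 and 0.02. The 14 LT-HSC markers summed to 1573 to 1823 CPM labelled KO and 1935 to 2261 CPM in WT, with 1 lower. Of the 14, 11 had log2 fold changes below 0 and 3 above, with a median of -0.47. In 5 of them every library labelled KO lay below every WT library and in 0 above, against 7.47% and 8.23% of all genes tested. Mast cell and basophil markers, 8 in number with 7 tested, summed to 347 to 1269 and 13 to 307 CPM, 2 of them higher. The 16 megakaryocyte and platelet markers summed to 1159 to 2054 and 5494 to 12168 CPM, 13 of them lower. The part of any of these cells in the levels of the cell cycle genes was not tested.

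Of the remaining marker lists, the granulocyte and monocyte sums lay apart, lower in the libraries labelled KO, and the other sums overlapped between the groups. Lyz2 made up most of the granulocyte and monocyte sums, at 462 to 574 CPM labelled KO and 651 to 796 CPM in WT. It did not pass (edgeR adjusted p = 0.150), and of the 9 tested genes of that list 4 lay above 0 and 5 below. Erythroid markers (12 genes) summed to 1834 to 3883 CPM labelled KO and 2059.6 to 3842 CPM in WT, with 0 higher and 0 lower, and Slc4a1 at 0 reads throughout. Granulocyte and monocyte markers (11 genes) summed to 509 to 623 CPM labelled KO and 696 to 831 CPM in WT, with 0 higher and 1 lower, and Ly6g at 0 reads throughout. B, T and NK cell markers (12 genes) summed to 219.9 to 402 CPM labelled KO and 193 to 268 CPM in WT, with 0 higher and 0 lower, and Pax5 and Klrd1 at 0 reads throughout. Stromal and endothelial markers (10 genes) summed to 45.8 to 80.1 CPM labelled KO and 58.1 to 65.7 CPM in WT, with 1 higher and 0 lower, and Cdh5 at 0 reads throughout. The genes tested in these lists were 11 erythroid, 9 granulocyte and monocyte, 6 B, T and NK cell, and 6 stromal and endothelial.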

How the data were processed

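The labels' protocols name a SMART-Seq v4 kit for all 7 libraries. This kit keeps no strand, so a gene and its antisense partner cannot be told apart. Adapters were trimmed with cutadapt and transcripts quantified with Salmon 0.11.2 on mm10, per the submitters' processing notes (transcript set not given in the sources used here). Expected counts (estimated reads) and TPM per transcript were used as the authors deposited them, and the deposited effective lengths served an offset for average transcript length. Of 112092 transcripts, 111787 matched GENCODE M21 (GRCm38), and the rest held 0.0836% to 0.123% of reads. Counts were summed per gene and rounded.

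Groups and replicate numbers come from the titles. No label ties a replicate to its own mouse, so p-values reflect only how far these samples differ, some of which can be technical. A quasi-likelihood fit over all genes was made in edgeR 4.0.16, R 4.3.3 (TMM scaling, filterByExpr), with Benjamini-Hochberg adjustment over all genes and a threshold of 0.05. Log2 fold changes are labelled KO minus WT, and the SE is the absolute log2 fold change over the square root of F. CPM uses TMM-scaled library sizes, and 95% intervals use the fitted degrees of freedom. On counts simulated for this comparison (14352 genes), the test found 38% of 100 genes set to 2-fold and 83% of 100 set to 4-fold, with 9 of 14152 unchanged genes called. DESeq2 1.42.0 and limma 3.58.1 were alternatives. Values are given in full for genes that passed, the 2 of smallest p in each functional group and the most abundant of each phase. The genes and lists were chosen with earlier results of these data known. Of 75 further G2/M genes listed, 74 had a row.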

Additional observations from a re-analysis of the deposited data

Results flagged for a closer look

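Among 55 quantities examined in the 4 libraries labelled KO, the 52 genes and 3 sums, 2 had 1 library far from the other 3. Chance flags about 1 in 20 such groups. Tyms was at 302 CPM in replicate 2 against 219 to 228 CPM in the other 3. Kif23 was at 78.2 CPM in replicate 4 against 57.8 to 59.3 CPM, and WT replicate 3, at 58.9 CPM, lay within the latter range. The MCM genes of replicate 4 were not marked out in this way, since replicate 2 lay between it and the other libraries.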

How the results depend on the processing

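Over the 19 alternatives, 31 of the 52 genes kept the sign of their log2 fold change and 21 did not, none of the latter among called genes. Cenpe passed in all of them and Cenpf in 12; apart from these, Tpx2 (length offset), Kif23 (0.60 with Y-linked expression as a covariate) and Cdc45 (libraries with Y-linked expression) passed in 1 each. With 1 library left out, the count of cell cycle genes called higher was 1 to 2 and lower 0, the S median 0.10 (without replicate 4 labelled KO) to 0.42, and the G2/M median 0.043 (without WT replicate 2) to 0.28. The counts of all genes were then 30 to 130 higher and 157 to 279 lower. They were 379 and 567 with DESeq2, 269 and 439 with limma voom, 218 and 396 with Y-linked expression as a covariate, and 215 higher with the length offset. With limma voom the medians were 0.13 for S and 0.10 for G2/M genes. In the 5 libraries with Y-linked expression they were 0.14 and 0.29, with 42 of the 52 genes above 0. The cause of these shifts was not tested. The analyses of those 5 libraries and of coding transcripts alone were chosen after seeing the data.

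With the replicate number as a block, which leaves replicate 4 labelled KO without a partner, 58 genes were higher. Of the cell cycle genes 1, Cenpe, was called, and Cenpf was at 0.70 (edgeR adjusted p = 0.134). The S median was 0.089 and the G2/M median 0.16. Same-numbered libraries did not deviate together (r = -0.05, -0.12 and -0.04 across genes for numbers 1 to 3), and 0 of 6 libraries correlated best with its own number. These values gave no sign of a pairing by number, but with so few libraries they cannot exclude a weak one. With 4 and 3 libraries the simulation recovered 38% of 2-fold changes, so a difference under 2-fold that missed the threshold here is not shown to be absent.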
